A study of Mus musculus with 6 samples.

Results

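The genes described here are 10 regulators of fatty acid and mitochondrial gene expression, chosen by name from the 56748 genes measured in newborn mouse hearts. They are the PPAR receptors Ppara, Ppard and Pparg, the retinoid X receptors Rxra and Rxrg, the oestrogen-related receptors (ERR) Esrra, Esrrb and Esrrg, and the PGC1 coactivators Ppargc1a and Ppargc1b. Whole hearts were taken at postnatal day 1 from 2 groups of 3. The cKO hearts carried a cardiac-specific knockout of Kdm5b, a demethylase of lysine 4 of histone H3, and the control hearts, labelled Flox, had the genotype FF. The labels name neither the Cre driver nor the allele behind FF, and they do not say whether each sample was a separate animal, so each p-value reflects how far these samples, perhaps technical repeats, vary. In whole hearts, fewer cells of a type and less RNA per cell cannot be told apart.

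PPARs are nuclear receptors that bind fatty acids and their derivatives, and they sit on DNA together with an RXR partner. ERRs are related receptors with no known natural hormone, and they switch on genes of the respiratory chain and of fat oxidation. PGC1 proteins do not bind DNA themselves but are recruited by PPARs and ERRs and raise their activity. After birth the heart turns from glucose and lactate to fatty acids as its main fuel, and these factors are known to take part in that change.

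The libraries held 15658893 to 20339926 reads, and levels are FPKM, read fragments scaled to gene length and to the size of the library, so that genes can be compared. Kdm5b was at 2.80, 3.03 and 2.75 FPKM in cKO hearts, against 3.19, 3.25 and 3.92 FPKM in FF hearts, with a log2 difference of -0.20 (limma, adjusted p = 0.447). The value covers the whole gene and every cell of the heart, so it checks the labels only coarsely. FF replicate 3 stood apart, with correlations of 0.880 to 0.909 with the other libraries across genes. The sum of 12 thymocyte markers was 0.429 to 1.42 FPKM in cKO libraries and 0.724 to 289 FPKM in FF libraries, the highest being FF replicate 3. The summed level of 10 heart muscle cell markers overlapped between the groups, at 14317 to 16412 FPKM in cKO and 13850 to 15969 FPKM in FF libraries. The sum hides single markers, of which 2 were lower and 2 higher in cKO hearts without overlap. Myl7 varied most within a group, at 337, 199 and 599 FPKM in cKO libraries and 45.3, 357 and 1019 FPKM in FF libraries. Of other cell types, 3 of 8 tested fibroblast markers were lower and 1 higher without overlap, and 3 of 8 tested endothelial markers were lower and 0 higher. Of 5 tested erythroid markers 2 were higher without overlap. Across tested genes 14.5% were lower and 13.5% higher. The 7 listed erythroid markers summed to 891 to 1096 FPKM in cKO libraries and 753 to 1554 FPKM in FF libraries, the highest being FF replicate 3. Reads from the mitochondrial genome made up 12.83% to 15.71% of cKO libraries and 17.98% to 18.97% of FF libraries, with no overlap. Rescaling outside the mitochondrial genome left the sign of the difference the same at all 10 regulators. Results are given with and without FF replicate 3 where it matters to them.

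All 10 regulators were read in every library, and their levels spanned a wide range. In cKO hearts Ppargc1a (23.7 ± 2.91 FPKM) and Esrra (22.2 ± 1.92 FPKM) were highest and did not differ beyond their spread, followed by Rxra (13.3 ± 2.06 FPKM). Ppargc1b (8.60 ± 0.888 FPKM) and Esrrg (8.51 ± 1.20 FPKM) came next and were alike. Esrrb, Ppara, Pparg and Ppard lay close together between 2.99 and 2.52 FPKM, and Rxrg was lowest at 0.647 ± 0.111 FPKM (SD, n = 3). In FF hearts Esrra (23.0 ± 2.21 FPKM) was highest. Rxra (14.9 ± 3.72 FPKM) and Ppargc1a (13.7 ± 7.30 FPKM) lay within each other's spread, and without FF replicate 3 Ppargc1a averaged 17.9 FPKM and Rxra 12.8 FPKM. Rxrg (1.72 ± 0.0773 FPKM) lay level with Ppara (1.71 ± 0.351 FPKM). Expressed genes were those with a mean of at least 1 FPKM over the 6 libraries, of which there were 12678, and all 10 regulators were among them. Rxrg reached that mean through the FF libraries only, since its cKO values were all below 1.

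With all 6 libraries, 0 of the 10 regulators changed in limma with Benjamini-Hochberg adjustment over all genes, where 0.166% of tested genes did. The count at an unadjusted p under 0.05 was 4 by limma (Ppara, Ppargc1b, Esrrb and Rxrg), beside 17.9% of tested genes, and limma-voom on the reads gave 0 after adjustment, where it called 0.0868% of tested genes (0.0473% higher and 0.0394% lower), and 4 before it, beside 2283 of the 12678 tested genes. The cKO and FF values did not overlap at 5 of the 10. Ppara, Ppargc1a, Ppargc1b and Esrrb were higher in all cKO hearts, a separation that 13.5% of tested genes showed in that direction, and Rxrg was lower in all cKO hearts, as were 14.5% of tested genes. Across all tested genes 28.0% did not overlap. The median log2 difference of the 10 was 0.28, beside 0.01 over all genes tested, on the log2(FPKM + 1) scale, cKO minus FF. Without FF replicate 3 it was 0.13 and Rxrg alone was past the threshold, having reached the filter through the FF libraries, where 12.0% of tested genes passed and 6.26% were lower.

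**Figure D1:**
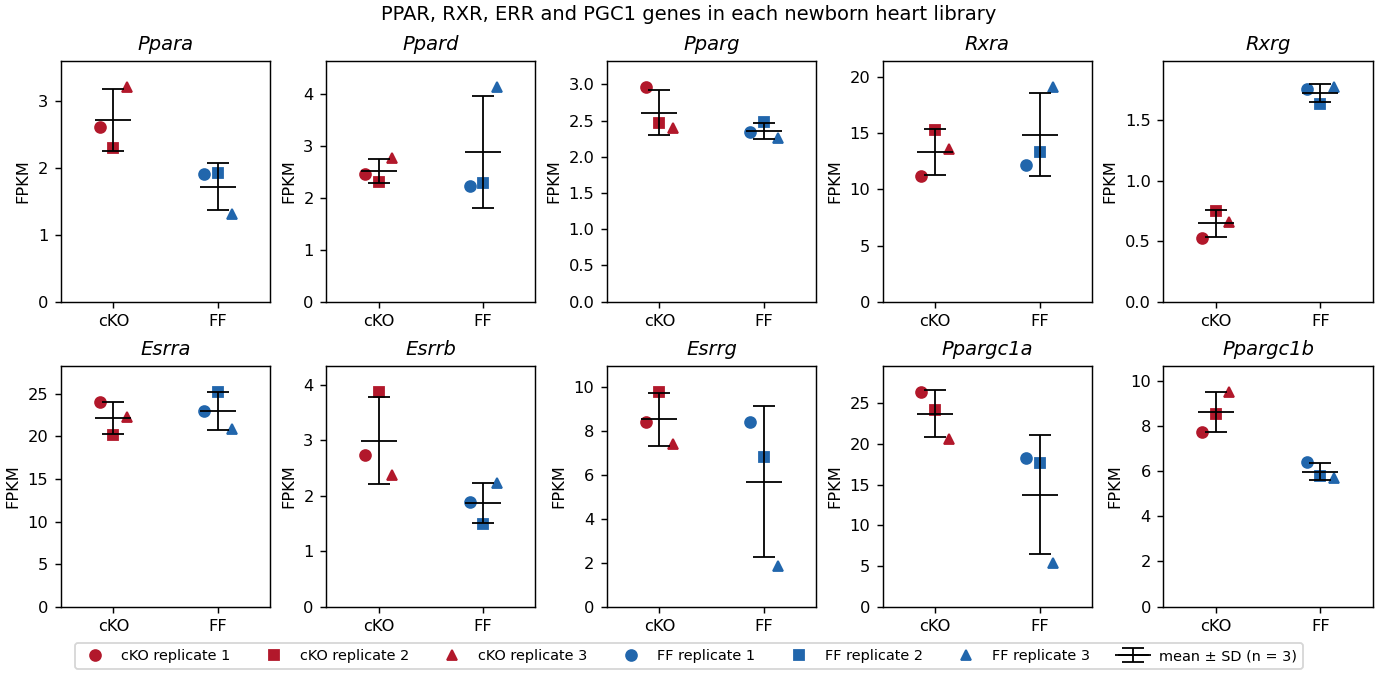
FPKM of each of the 10 regulators in every library, cKO to the left of FF, with the mean ± SD of 3 libraries as black bars and each axis starting at 0. The cKO points of Rxrg all lie below 1 FPKM and its FF points at 1.63 FPKM or more, and FF replicate 3 (blue triangle) lies far below the other FF points for Esrrg and Ppargc1a.

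**Figure D2:**
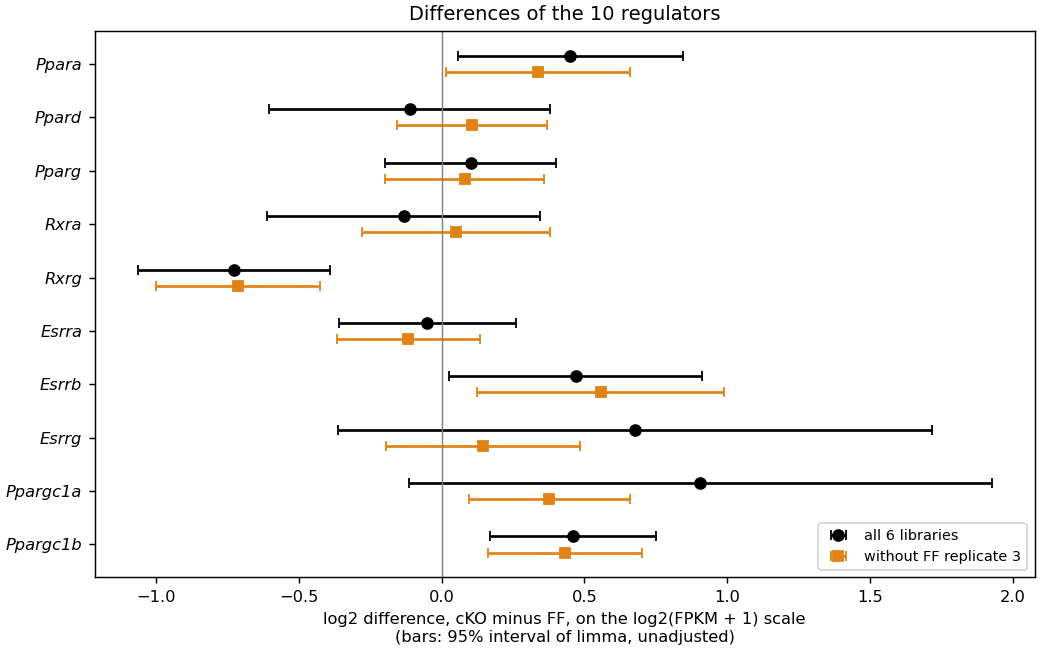
Log2 difference, cKO minus FF, of each regulator with its unadjusted 95% interval from limma, with all 6 libraries (black circles) and without FF replicate 3 (orange squares). Rxrg keeps its value (-0.73 and -0.71), whereas Ppargc1a is at 0.91 with all libraries and 0.38 without that library, and Esrrg at 0.68 and 0.14.

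Among the RXR genes, Rxrg was low in cKO hearts while Rxra was not. RXRs are the shared partners of PPARs, retinoic acid receptors and thyroid hormone receptors, and Rxrg is the one with the narrowest tissue range. Rxrg (ENSMUSG00000015843, chromosome 1, 167425953 to 167467192, plus strand) was at 0.529, 0.749 and 0.662 FPKM in cKO hearts, against 1.76, 1.63 and 1.77 FPKM in FF hearts. Every cKO value was less than the lowest FF value, and the cKO mean was 0.375 times the FF mean. The values rest on 24, 34 and 33 reads in cKO libraries and on 69, 60 and 78 reads in FF libraries. The 95% exact Poisson intervals, which cover counting error only, reached at most 1.05 FPKM in cKO libraries and no lower than 1.25 FPKM in FF libraries. The log2 difference was -0.73 (SE 0.14, adjusted p = 0.0772, limma), short of the threshold, and -0.71 (SE 0.12, adjusted p = 0.0227, limma) without FF replicate 3, which passed it. Rxrg entered the test through its FF level alone, so this call is a description and not a valid test of a fall, and with no filter on low values the adjusted p with all libraries was 0.175 (limma). On the log2 scale of the reads, with no added constant of 1 FPKM, limma-voom gave -1.41 (adjusted p = 0.0741) with all libraries and -1.39 (adjusted p = 0.0124) without FF replicate 3. The two-sided exact permutation p was 0.1, the smallest that 3 against 3 allows.

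Rxra (ENSMUSG00000015846, chromosome 2, 27566452 to 27652969, plus strand), the main RXR of heart muscle, was at 11.2, 15.3 and 13.6 FPKM in cKO hearts, against 12.2, 13.3 and 19.1 FPKM in FF hearts. The groups overlapped, and FF replicate 3 was the highest library. Its log2 difference was -0.13 (95% interval -0.61 to 0.34, adjusted p = 0.771, limma), and it was 0.05 without FF replicate 3. Rxrb, the third RXR and one of the RXR partner list, was at 12.5, 12.8 and 11.7 FPKM in cKO hearts, against 9.55, 9.96 and 13.4 FPKM in FF hearts. Rxrg made up 2.19%, 2.60% and 2.55% of the summed RXR FPKM in cKO hearts and 7.48%, 6.55% and 5.17% in FF hearts. The share separated the groups as the level did, but it restates the same Rxrg values and is not a further result. The summed RXR level overlapped, at 24.2, 28.8 and 25.9 FPKM in cKO hearts and 23.5, 24.9 and 34.3 FPKM in FF hearts.

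The windows upstream of the RXR starts are shown because Rxrg and Rxra differed in level and in how they compared between the groups. Each holds the 250 bases before a RefSeq start on GRCm38.p6, plus strand, with positions that are not on the scale of the gene coordinates above, which are the table's own. The gene-level values do not tell which start was used. Capitals mark AGGTCA, the core motif that nuclear receptors bind, on either strand (TGACCT on the other), together with the preceding A where the match is AAGGTCA, the longer form that ERRs bind.
Rxrg, first start, chr1:167598112-167598361: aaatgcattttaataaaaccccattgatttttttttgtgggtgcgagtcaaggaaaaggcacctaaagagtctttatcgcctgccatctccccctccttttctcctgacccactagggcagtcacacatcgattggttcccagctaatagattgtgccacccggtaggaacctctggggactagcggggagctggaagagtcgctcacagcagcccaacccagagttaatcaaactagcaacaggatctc
Rxrg, second start, chr1:167618015-167618264: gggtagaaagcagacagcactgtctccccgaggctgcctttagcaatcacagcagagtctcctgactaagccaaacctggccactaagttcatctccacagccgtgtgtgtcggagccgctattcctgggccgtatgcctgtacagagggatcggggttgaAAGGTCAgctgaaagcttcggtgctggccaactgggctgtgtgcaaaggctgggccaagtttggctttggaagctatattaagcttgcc
Rxra, second start, chr2:27709042-27709291: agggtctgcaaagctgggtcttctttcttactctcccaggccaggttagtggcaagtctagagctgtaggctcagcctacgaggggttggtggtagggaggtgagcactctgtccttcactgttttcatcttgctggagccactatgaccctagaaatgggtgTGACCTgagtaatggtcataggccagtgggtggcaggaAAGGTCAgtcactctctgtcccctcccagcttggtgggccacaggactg

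The second Rxrg start has AAGGTCA from 89 to 83 bases upstream, and the first has no match. The first Rxra start, with a window at chr2:27676951-27677200, has no match either and is not printed. The second Rxra start has AAGGTCA from 49 to 43 bases upstream and a further core motif on the other strand from 87 to 82 bases upstream. AAGGTCA or its complement was present in 2 of the 17 windows found for 9 of the regulators and in 4.08% of the 32851 windows of all genes. AGGTCA, which AAGGTCA contains, was in 4 of the 17 and in 14.0% of all, the other 2 being windows of Pparg. The repeat of AGGTCA with 1 base between the copies, the form that PPAR and RXR bind together, was in 0 of the 17 and in 0.0335% of all windows. The CREB element TGACGTCA and the TFEB and TFE3 element CACGTG were in 0 of the 17, and in 1.55% and 6.02% of all windows. A match describes the letters of the window only.

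Of the PPAR receptors, Ppara was the one whose values separated the groups. Ppara (ENSMUSG00000022383, chromosome 15, 85619184 to 85687020, plus strand), the receptor that drives fatty acid oxidation in heart and liver, was at 2.61, 2.30 and 3.21 FPKM in cKO hearts, against 1.91, 1.92 and 1.31 FPKM in FF hearts. The lowest cKO value was above the highest FF value, and the cKO mean was 1.58 times the FF mean. The exact Poisson intervals of these closest values, which cover counting error only, overlapped. They were 1.97 to 2.66 FPKM for the lowest cKO value and 1.59 to 2.30 FPKM for the highest FF value. The log2 difference of 0.45 (SE 0.16, adjusted p = 0.231, limma) did not pass, nor did 0.34 (adjusted p = 0.134) without FF replicate 3, which was the lowest library.

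Ppard (ENSMUSG00000002250, chromosome 17, 28451674 to 28520448, plus strand), a broadly expressed PPAR that also drives fatty acid oxidation, was at 2.47, 2.32 and 2.77 FPKM in cKO hearts, against 2.24, 2.29 and 4.14 FPKM in FF hearts. FF replicate 3 was the highest, and the other 5 libraries lay close together. Its log2 difference was -0.11 (95% interval -0.61 to 0.38, adjusted p = 0.819, limma), and 0.11 (95% interval -0.15 to 0.37) without FF replicate 3.

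Pparg (ENSMUSG00000000440, chromosome 6, 115337912 to 115467360, plus strand), the regulator of fat cell formation, was at 2.97, 2.47 and 2.40 FPKM in cKO hearts, against 2.34, 2.48 and 2.26 FPKM in FF hearts. The groups overlapped, with a log2 difference of 0.10 (95% interval -0.20 to 0.40, adjusted p = 0.722, limma). The 10 fat cell markers, Ucp1 and Adipoq among them, summed to 0.121 to 0.248 FPKM in cKO libraries and 0.122 to 0.397 FPKM in FF libraries, none of them reached the filter, and Lep was at 0 in all libraries. Within the summed PPAR level, Ppara took 32.5%, 32.4% and 38.3% in cKO hearts and 29.4%, 28.8% and 16.9% in FF hearts. Ppard took 30.7%, 32.7% and 33.1% in cKO hearts and 34.5%, 34.2% and 53.7% in FF hearts. Neither share overlapped between the groups, with a two-sided exact permutation p of 0.1 for each, and the outlying value in both was FF replicate 3. The summed PPAR level overlapped, at 8.05, 7.08 and 8.38 FPKM in cKO hearts and 6.49, 6.69 and 7.72 FPKM in FF hearts.

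The ERR genes differed from one another in how they behaved. Esrra (ENSMUSG00000024955, chromosome 19, 6888345 to 6899208, minus strand), the most abundant ERR, was at 24.0, 20.2 and 22.3 FPKM in cKO hearts, against 23.0, 25.3 and 20.8 FPKM in FF hearts. The groups overlapped throughout, with a log2 difference of -0.05 and a 95% interval of -0.36 to 0.26 (adjusted p = 0.875, limma). Esrra overlaps Trmt112 on the other strand, which reached 13.4 FPKM, and without a stated strand setting their reads may be shared.

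Esrrb (ENSMUSG00000021255, chromosome 12, 86407891 to 86568402, plus strand), known from stem cells and the inner ear, was at 2.73, 3.87 and 2.38 FPKM in cKO hearts, against 1.89, 1.49 and 2.22 FPKM in FF hearts. The lowest cKO and highest FF values were close but did not overlap, and the cKO mean was 1.60 times the FF mean. The exact Poisson intervals of these closest values, which cover counting error only, did overlap. They were 2.12 to 2.66 FPKM for the lowest cKO value and 1.96 to 2.51 FPKM for the highest FF value. The log2 difference was 0.47 (SE 0.19, adjusted p = 0.259, limma), and 0.56 (SE 0.18, adjusted p = 0.0877, limma) without FF replicate 3. Limma-voom on the reads called it higher without FF replicate 3 (0.79, adjusted p = 0.0440), as it did 9.09% of tested genes.

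Esrrg (ENSMUSG00000026610, chromosome 1, 187340988 to 187947082, plus strand), an ERR needed for oxidative metabolism in the newborn mouse heart, was at 8.38, 9.76 and 7.38 FPKM in cKO hearts, against 8.38, 6.82 and 1.83 FPKM in FF hearts. FF replicate 3 was far below the other 5 libraries, which overlapped. The log2 difference of 0.68 (95% interval -0.36 to 1.72, adjusted p = 0.472, limma) was 0.14 (95% interval -0.20 to 0.48, adjusted p = 0.509) without it. Esrra accounted for 68.4%, 59.7% and 69.6% of the summed ERR FPKM in cKO hearts and 69.1%, 75.2% and 83.7% in FF hearts.

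The PGC1 coactivators were higher in every cKO heart than in any FF heart. Ppargc1a (ENSMUSG00000029167, chromosome 5, 51611592 to 51725068, minus strand), the inducible coactivator of mitochondrial biogenesis, was at 26.4, 24.1 and 20.6 FPKM in cKO hearts, against 18.2, 17.6 and 5.32 FPKM in FF hearts. FF replicate 3 was at 0.296 times the mean of the other FF libraries and carried much of the difference. The cKO mean was 1.73 times the mean of all FF libraries and 1.32 times that of FF replicates 1 and 2. The log2 difference was 0.91 (SE 0.43, adjusted p = 0.333, limma), and 0.38 (SE 0.12, adjusted p = 0.0812, limma) without FF replicate 3. Limma-voom called it higher without that library (0.40, adjusted p = 0.0462), as it did 9.09% of tested genes.

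Ppargc1b (ENSMUSG00000033871, chromosome 18, 61431207 to 61533502, minus strand), the related coactivator that is less responsive to fasting and cold, was at 7.74, 8.55 and 9.51 FPKM in cKO hearts, against 6.40, 5.80 and 5.70 FPKM in FF hearts. FF replicate 3 lay with the other FF libraries here, and the cKO mean was 1.44 times the FF mean. The log2 difference was 0.46 (SE 0.12, adjusted p = 0.137, limma), and 0.43 (SE 0.11, adjusted p = 0.0546, limma) without FF replicate 3, short of the threshold both times. Limma-voom without that library called it higher (0.49, adjusted p = 0.0337), where it called 19.2% of tested genes, 9.09% higher and 10.1% lower. The summed PGC1 level was 34.1, 32.7 and 30.1 FPKM in cKO hearts and 24.7, 23.4 and 11.0 FPKM in FF hearts, with no overlap and a two-sided exact permutation p of 0.1.

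**Figure D3:**
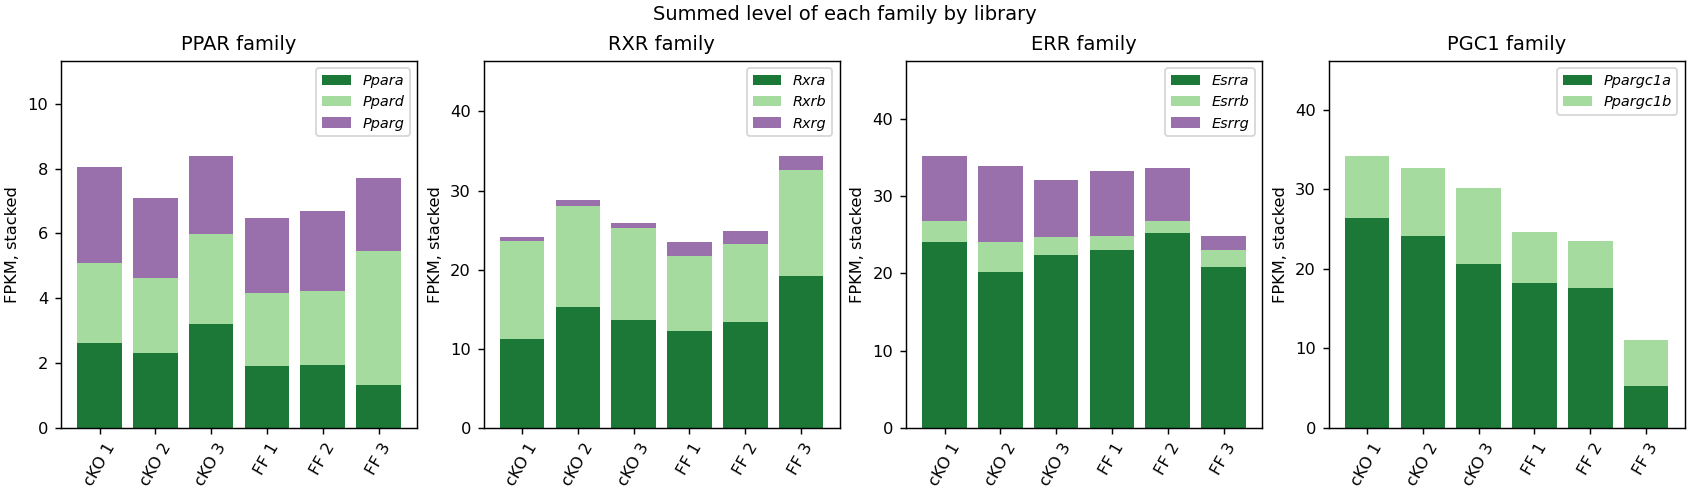
Summed FPKM of the PPAR, RXR, ERR and PGC1 families in each library, cKO libraries to the left of FF libraries, with the genes of a family stacked. The PGC1 sum is at least 30.1 FPKM in the 3 cKO libraries and at most 24.7 FPKM in the 3 FF libraries, and Rxrg is the thin top layer of the RXR bars, 2.19% to 2.60% of the sum in cKO and 5.17% to 7.48% in FF libraries.

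The low values of Ppargc1a and Esrrg in FF replicate 3 went with low GC content. Their longest GENCODE M21 transcripts had 41.7% and 42.5% GC, the lowest of the 10 regulators, and their levels in that library were 0.296 and 0.240 times the mean of FF replicates 1 and 2. The other 8 regulators had 50.2% to 57.8% GC and ratios of 0.682 to 1.83, the highest being Ppard. Among them the ratio did not rise steadily with GC content. It was 0.682 for Ppara (51.5% GC), 1.83 for Ppard (52.2%) and 0.934 for Ppargc1b (57.8%). The part of base composition in these values was not tested.

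By sign, 6 of the 10 regulators lay above 0 with all 6 libraries, beside 50.7% of tested genes, and 0 passed the threshold. Most of the PPAR target genes listed here lay below 0. Of 32 listed targets, which act mostly in fatty acid oxidation and fat storage, 28 reached the filter. The other 4, Fgf21, Creb3l3, Cyp4a10 and Cyp4a14, stayed at or below 0.218 FPKM in all libraries. With all 6 libraries 3 of the 28 fell and 0 rose, where 0.0947% of tested genes fell, and the median log2 difference was -0.43, with 23 of 28 below 0. The groups did not overlap at 14 of the 28 in the lower direction and at 2 in the higher direction, against 14.5% and 13.5% of tested genes. Without FF replicate 3, 13 fell and 0 rose, with a median of -0.44, where 6.26% of tested genes fell and 5.73% rose. The list was drawn up with earlier results of these data known, and several of its genes were among the largest differences in them. Its median also depends on which genes were placed in it. Fatty acid supply genes were listed apart. With all 6 libraries 4 lay above 0 and 6 below, among them Cd36 at 0.01, Lpl at 0.50 and Fabp3 at -1.24. Without FF replicate 3, 2 lay above 0 and 8 below, with Cd36 at -0.28, Lpl at -0.06 and Fabp3 at -1.41.

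Ech1, which processes unsaturated fatty acids, fell to 79.3 ± 8.44 FPKM in cKO hearts, against 199 ± 11.2 FPKM in FF hearts (SD, n = 3 each; adjusted p = 0.0338, limma). Cidea, a lipid droplet protein, fell to 9.54 ± 1.16 FPKM in cKO hearts, against 23.9 ± 0.912 FPKM in FF hearts (adjusted p = 0.0338, limma), a call that limma-voom did not make (adjusted p = 0.0583). Leaving out each library gave log2 differences of -1.39 to -1.24 for Ech1 and -1.34 to -1.19 for Cidea, and without any library other than FF replicate 3 limma called 0 of all genes, both included.

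Decr1, Ucp2 and Slc25a20 did not pass with all 6 libraries and fell without FF replicate 3. Decr1, a reductase for unsaturated fatty acids, was at 34.5, 38.1 and 28.9 FPKM in cKO hearts, against 80.9, 78.1 and 61.8 FPKM in FF hearts (log2 difference -1.22, adjusted p = 0.0126, limma without FF replicate 3). Slc25a20, the carnitine carrier of the inner mitochondrial membrane, was at 19.5, 17.9 and 18.3 FPKM in cKO hearts, against 34.3, 31.3 and 30.6 FPKM in FF hearts (-0.79, adjusted p = 0.0152, limma without FF replicate 3). Ucp2, a mitochondrial carrier also abundant in immune cells, was at 12.8, 13.8 and 12.2 FPKM in cKO hearts, against 23.4, 23.3 and 53.5 FPKM in FF hearts (-0.81, adjusted p = 0.0144, limma without FF replicate 3). Of 7 tested macrophage markers 0 passed with all libraries and 1, Lyz2, without FF replicate 3, 4 were lower without overlap, where 14.5% of tested genes were, and Mrc1 averaged 2.84 FPKM in cKO and 2.14 FPKM in FF hearts. The 8 listed summed to 42.4 to 51.0 FPKM in cKO libraries and 56.2 to 115 FPKM in FF libraries, and their part in the Ucp2 difference was not tested.

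The well known targets Pdk4 and Angptl4, named after their values were seen, overlapped between the groups. Pdk4, the kinase that shuts pyruvate out of the mitochondrion, was at 108, 77.5 and 86.5 FPKM in cKO hearts, against 89.3, 111 and 82.0 FPKM in FF hearts (log2 difference -0.06, adjusted p = 0.902, limma). Angptl4, a secreted inhibitor of lipoprotein lipase, was at 10.7, 4.87 and 8.01 FPKM in cKO hearts, against 9.15, 11.8 and 16.4 FPKM in FF hearts (-0.62, adjusted p = 0.342, limma).

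**Figure D4:**
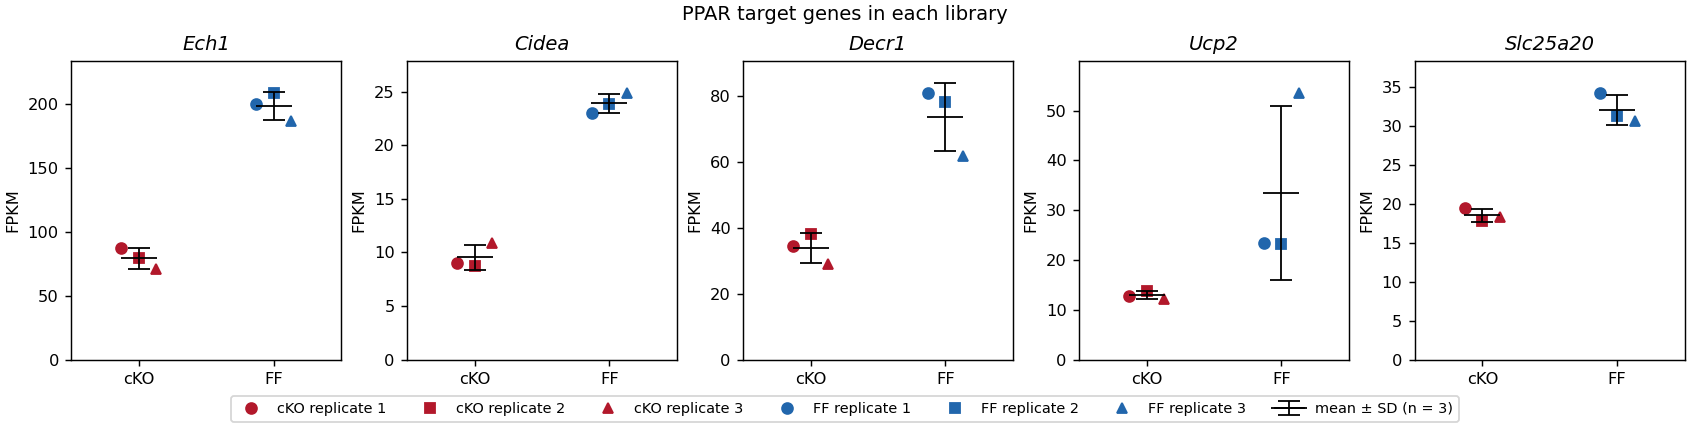
FPKM of 5 PPAR target genes in every library, cKO to the left of FF, with the mean ± SD of 3 libraries as black bars and each axis starting at 0. No cKO point reaches an FF point in any of the panels, and Cidea lies at 10.9 FPKM or less in cKO libraries and at 23.1 FPKM or more in FF libraries. The genes were picked from the called targets by smallest p, so the separation partly follows from that choice. Other targets, Pdk4 and Angptl4 among them, overlapped.

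As listed here, targets of ERR and PGC1 did not move as one group. Fat oxidation genes, on which ERRs also act, were mostly listed with the PPAR targets, so the lists do not separate the factors. All 30 genes listed for ERR and PGC1, of the respiratory chain, the citric acid cycle and mitochondrial structure, were tested. With all 6 libraries, 0 changed in limma or in limma-voom, 4 had an unadjusted p under 0.05 by each tool, a smaller share than the 17.9% of tested genes in limma, and 15 lay above and 15 below 0, with a median log2 difference of 0.01. Without FF replicate 3, 4 fell and 0 rose with a median of 0.02, where 6.26% of tested genes fell. Etfb, which passes electrons from fatty acid oxidation to the respiratory chain, averaged 8.29 ± 1.91 FPKM in cKO hearts and 16.7 ± 0.931 FPKM in FF hearts, with no overlap (-0.97, adjusted p = 0.0239, limma without FF replicate 3). Cox4i1 and Cox8b, subunits of cytochrome c oxidase, had log2 differences of -0.53 and -0.92 with all libraries (adjusted p = 0.186 and 0.180, limma) and of -0.66 and -1.12 without FF replicate 3 (adjusted p = 0.0377 and 0.0434). Etfa, the partner of Etfb, was at 184, 163 and 154 FPKM in cKO hearts, against 249, 224 and 77.9 FPKM in FF hearts. Its log2 difference was 0.03 with all libraries and -0.50 (adjusted p = 0.0453, limma) without FF replicate 3, in which it was lowest.

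Among genes that act on PGC1, Flcn rose with all libraries. Folliculin, its product, restrains the transcription factors TFEB and TFE3 and with them PGC1 expression in muscle and fat cells of mice. It was at 28.8, 27.0 and 24.9 FPKM in cKO hearts, against 8.02, 9.29 and 7.18 FPKM in FF hearts (log2 difference 1.61, SE 0.13, adjusted p = 0.0247, limma). It was the single call among 19 tested regulators of PGC1, whose median was 0.11, where 0.0710% of tested genes rose. Leaving out each library gave 1.53 to 1.70, and without any library other than FF replicate 3 limma called 0 of all genes, Flcn included. Without FF replicate 3, 3 of the 19 rose and 2 fell, beside 5.73% and 6.26% of tested genes. Prkaa2, the catalytic subunit of the energy sensor AMPK that predominates in muscle, was at 32.4, 32.9 and 31.7 FPKM in cKO hearts, against 24.5, 22.2 and 11.6 FPKM in FF hearts (0.45, adjusted p = 0.0291, limma without FF replicate 3). Fbxw7, a ubiquitin ligase component, stood at -0.79 and Ppp3ca, the catalytic subunit of calcineurin, at -0.52 (adjusted p = 0.0126 and 0.0291, limma without FF replicate 3). Both were lowest in FF replicate 3, at 5.01 and 3.91 FPKM, so with all libraries the groups overlapped and their differences were -0.42 and -0.01.

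Genes that supply the PPARs with fatty acids were mixed. With all 6 libraries 0 of 10 changed by limma or limma-voom, with 2 at an unadjusted p under 0.05 by each, beside 2275 and 2283 of the 12678 tested genes. Without FF replicate 3, 2 of 10 rose and 2 fell, beside 5.73% and 6.26% of tested genes. Fabp3, the fatty acid carrier of heart muscle, was at 1504, 1303 and 1200 FPKM in cKO hearts, against 3646, 3405 and 2516 FPKM in FF hearts, the groups lying well apart (-1.24, adjusted p = 0.0589, limma; -1.41, adjusted p = 0.0168, without FF replicate 3). Fabp4, a related carrier of endothelial and fat cells, had a difference of -0.14 (adjusted p = 0.880, limma) with all libraries, where the groups overlapped and FF replicate 3 was lowest at 49.8 FPKM, and of -0.58 (adjusted p = 0.0405) without that library. The lipase genes Lipe and Pnpla2, whose products release fatty acids from stored fat, had 0.56 and 0.42 with all libraries (adjusted p = 0.231 and 0.468, limma), with overlap at Pnpla2, and 0.78 and 0.69 without FF replicate 3 (adjusted p = 0.0164 and 0.0399).

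No member of the coactivator, corepressor, RXR partner or respiratory gene factor lists changed, with or without FF replicate 3, in limma. The medians were 0.16 over 11 coactivators, -0.06 over 12 corepressors, -0.07 over 7 RXR partners and 0.10 over 9 factors of nuclear respiratory genes with all libraries, and 0.09, -0.03, 0.18 and -0.01 in that order without FF replicate 3. At an unadjusted p under 0.05, limma with all 6 libraries had 1, 1, 0 and 0 of them in that order, and limma-voom had 1, 1, 1 and 0, with 0 of them called after adjustment. Without FF replicate 3 the unadjusted counts by limma were 1, 2, 2 and 1, where 33.5% of tested genes reached that level, and limma-voom called 1, 0, 1 and 1 after adjustment, where it called 19.2% of tested genes.

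**Figure D5:**
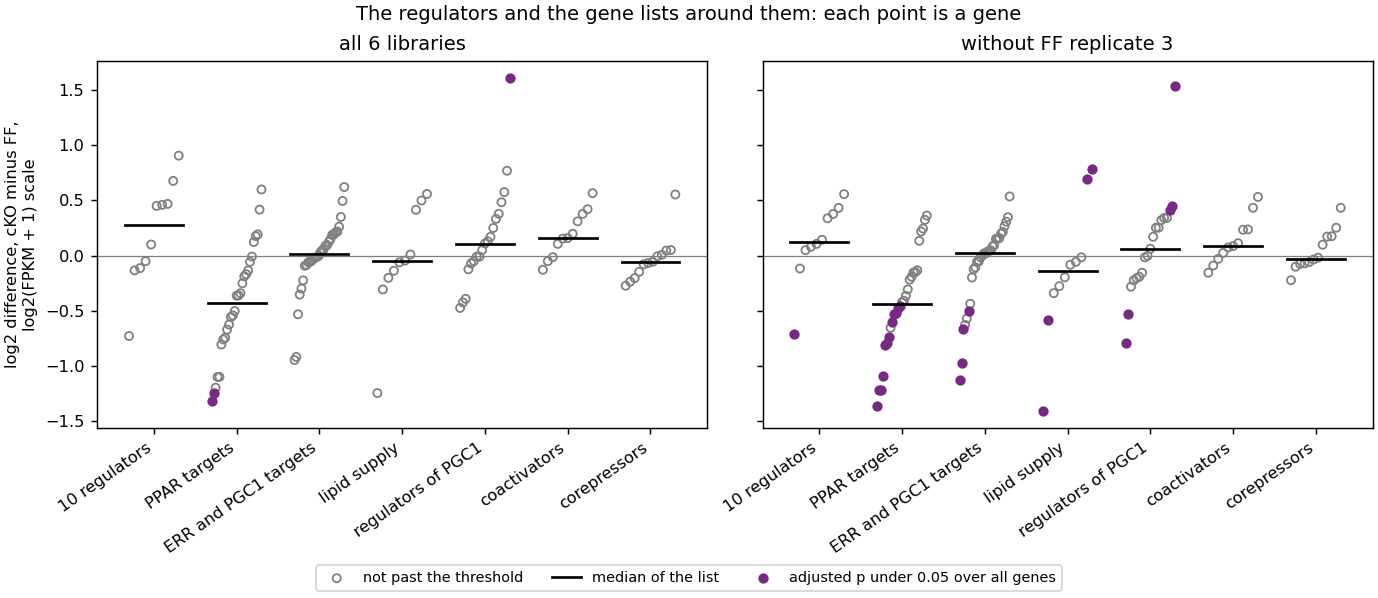
Log2 difference, cKO minus FF, of the 10 regulators and of the tested genes of 6 lists, with 1 PPAR target not drawn, with all 6 libraries (left) and without FF replicate 3 (right), filled where the adjusted p over all genes was under 0.05, with the median of the whole list as a bar. The PPAR targets have the lowest median (-0.43 and -0.44), and its filled points all lie below 0.

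The genes most like Rxrg and Ppargc1b, the regulators with the smallest p, were sought among 11356 tested genes. Likeness was the root mean square difference between centred log2(FPKM + 1) profiles over the 6 libraries, and it describes those libraries only. Among the nearest to Rxrg were Trim72, a membrane repair protein of striated muscle, at 0.0470, Pkmyt1, a kinase that inhibits Cdk1, at 0.0559, and Fkbp4, a co-chaperone of steroid receptors, at 0.0614. Trim72 was at 8.53, 9.92 and 8.91 FPKM in cKO hearts, against 15.8, 15.2 and 14.8 FPKM in FF hearts. The cKO mean was 0.597 times the FF mean for Trim72 and 0.617 times for Fkbp4, against 0.375 times for Rxrg. The added 1 FPKM narrows the profile of a gene as low as Rxrg, so these genes match it on that scale and not in fold change. Nearest to Ppargc1b were Tmem186, a mitochondrial membrane protein, at 0.0544, Ldb3, a Z-disc protein of muscle, at 0.0567, Polr3b, a subunit of an RNA polymerase, at 0.0587, and Mboat2, an acyltransferase of phospholipids, at 0.0590. Ldb3 was at 160, 188 and 181 FPKM in cKO hearts, against 135, 126 and 126 FPKM in FF hearts.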

How the data were processed

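Whole hearts of mice at postnatal day 1 were profiled by RNA sequencing in 3 cKO and 3 FF samples. Per the labels' protocols, the miRNeasy micro kit served for RNA and the Ovation Ultralow V2 kit for libraries. The authors deposited FPKM values, per the labels and the file headers, in 1 table. The submitters' processing notes list, in no order, edgeR, featureCounts, Subread, TopHat2 2.0.13 and FastQC, and 3 builds without a role (GRCm39, mm10, GRCh38). Coordinates are those of the table, with a build not given in the sources used; upstream windows are from RefSeq on GRCm38.p6.

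The test was limma (version 3.58.1, R 4.3.3) of group alone on log2(FPKM + 1), with the trend option and Benjamini-Hochberg adjustment at 0.05 over the 12678 genes with a mean of at least 1 FPKM. This scale understates the change of low genes. FPKM times gene length gave whole multiples of 1 step per library (100% of values under 200 reads within 0.1), and these reads entered limma-voom and the 95% Poisson intervals. Exact permutation tests used scipy 1.17.1. On simulated libraries of cKO against FF, with 12697 genes tested, limma recovered 100% of 4-fold and 93.0% of 2-fold changes with 16 false calls. The simulation gave every gene and library the same dispersion, changed only genes with a mean of at least 5 FPKM and held no outlying library. It therefore checks the code and does not give the power in these data, nor for Ppara, Ppard, Pparg, Esrrb and Rxrg, which lie below that level. The 10 genes and all lists were chosen with earlier results of these data known. From each list up to 4 called genes were named, up to 6 for targets, smallest p first, and the 4 nearest genes of the 2 regulators with the smallest p. Some genes that this rule selects are not reported here. Alternatives were another pseudocount, filter or scaling, the replicate number as a block, leaving out each library and, added after the data were seen, limma-voom.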

Additional observations from a re-analysis of the deposited data

How the results depend on the processing

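Over 145 recomputed differences of the 10 regulators, 133 kept their direction and their side of the threshold, 5 passed it (Rxrg without FF replicate 3 in limma, and Rxrg, Ppargc1a, Ppargc1b and Esrrb in limma-voom without it) and 7 changed sign, all in genes with differences near 0. Ppard turned to 0.11 without FF replicate 3 and 0.15 in limma-voom without it, Rxra to 0.0502 and 0.0537 in those fits, and Esrra to 0.0448 with quantile normalization. Leaving out each library gave -0.23 to 0.11 for Ppard, -0.25 to 0.05 for Rxra, -0.12 to 0.0164 for Esrra, -0.77 to -0.67 for Rxrg and 0.38 to 1.18 for Ppargc1a. The number of the 10 past the threshold was 0 to 1 over these fits, the 1 being without FF replicate 3, where 12.0% of tested genes passed. It was 4 in limma-voom without that library, where 19.2% of tested genes passed. Rxrg, counted in both, reached the filter through the FF libraries only. The cause of these shifts was not tested.

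The number of all genes past the threshold, 21, was 11 with a pseudocount of 0.1, 0 with no filter, 53 with a mean of at least 5 FPKM, 34 with rescaling outside the mitochondrial genome, 59 with quantile normalization and 11 in limma-voom. It was 0 to 1520 when each library was left out, 1520 without FF replicate 3 and 0 without any other, and 2433 in limma-voom without FF replicate 3. PPAR targets past the threshold, 3, were 0 with no filter, 5 with the higher filter, 0 to 13 when each library was left out and 15 in limma-voom without FF replicate 3. Of other named genes, Ppp3ca changed sign with a pseudocount of 0.1 (0.0143) and in limma-voom (0.0221) and ranged from -0.52 to 0.27 when each library was left out, Fabp4 with quantile normalization (0.00227) and from -0.58 to 0.10, and Etfa in limma-voom without FF replicate 3 (-0.50) and from -0.50 to 0.33.

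Same-numbered libraries deviated from their group means with correlations of 0.383, -0.238 and 0.239. With cKO replicate 1, FF replicate 2 had 0.349 and FF replicate 3 had -0.424. FF replicate 3 stood apart and shaped the FF deviations, so these values cannot decide whether the numbers pair the samples. With the replicate block, 2 of all genes passed, with 0 of the 10 regulators and 0 of the PPAR targets. Rxrg rests on 24 to 78 reads per library, a counting error of 11.3% to 20.4%, against 1.71% to 3.86% for Ppargc1a.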
